A study of Mus musculus with 28 samples.

Results

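Genes for secreted morphogens and growth factors are among the classic targets of H3K27me3, the trimethylation of lysine 27 on histone H3. The 46 genes described here are ligands, antagonists and carriers of 7 families: Wnt ligands, TGF-beta superfamily ligands, BMP antagonists, FGF ligands with the carrier Fgfbp1, hedgehog ligands, neurotrophic factors and the PDGF ligand Pdgfb. Their regions were taken from a table of H3K27me3 tag counts by the gene nearest to each region. Of 26326 regions, 104 named a member as nearest gene. These belonged to 36 of the 46 genes. The centre of 37 regions, at 31 genes, lay within 10 kb of the transcription start site (TSS), and 67 lay farther away.

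The study sorted brain microglia of adult wild-type C57BL/6 male mice by flow cytometry and profiled H3K27me3 by ChIP-seq, with brains of 2 to 6 mice pooled per sort. Basal microglia, gated as CD44LowCD45LowCD11bLow, were taken from animals kept on regular diet. Cuprizone groups were taken from mice fed 0.2% cuprizone, a copper chelator that kills oligodendrocytes and demyelinates the brain, for 4 weeks. They were split by the surface receptors CD229 (Ly9) and CD11c (Itgax) into CD229-CD11c-, CD229+CD11c- and CD229+CD11c+ microglia. Counts were analysed for 3 libraries per group (basal replicates 3 to 5, and replicates 1 to 3 of each cuprizone group), 12 in all. The regions themselves had been called on basal replicates 1 and 2, so places marked in cuprizone microglia alone are not in the list. Nothing in the labels says that the libraries of a group came from separate mice or sorting days, so each p-value weighs a difference only against library-to-library spread, which may in part be technical.

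H3K27me3 is written by Polycomb repressive complex 2 and marks genes that a cell keeps silent but that other lineages use, often as broad domains over CpG-rich promoters. Morphogens act at a distance: Wnt proteins bind Frizzled receptors, BMPs, activins and TGF-beta bind paired serine-threonine kinase receptors, and FGFs and neurotrophins bind receptor tyrosine kinases. In the embryo they pattern the neural tube, limb and gut, and in the adult brain neurons and glia use several of them as trophic signals.

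Libraries held 7740002 to 11362168 tags in the regions. In such bulk samples, fewer cells carrying the mark and less of the mark per cell cannot be told apart. All regions passed the filter on low counts. Of 12 microglial identity genes, 0 were overlapped by a region. The overlap was 7 of 7 for neuronal, 4 of 5 for astrocytic, 6 of 8 for oligodendrocyte-lineage and 4 of 6 for endothelial or mural markers. It was 3 of 5 for lymphocyte and 1 of 4 for peripheral macrophage markers. Since regions were called on basal replicates 1 and 2, this overlap describes those libraries and cannot check the cell identity of the 12 counted. Summed levels at the regions nearest to oligodendrocyte-lineage markers ran from 767 to 840 CPM (tags scaled to a common library size) in basal libraries and from 803 to 839 in CD229-CD11c-. They ran from 994 to 1050 CPM in CD229+CD11c- and from 879 to 911 in CD229+CD11c+. Neuronal markers ran from 1394 to 1638 CPM in basal, 1361 to 1855 in the CD229-CD11c- group, between 1537 and 1953 in CD229+CD11c- libraries and between 1652 and 1965 in CD229+CD11c+. The part of other cell types in the results was not tested. The string PE150 stands in the titles of 2 of the 3 libraries of every group. The labels give all 12 the same read length and do not say what the string marks, so it is used only as a tag that splits the libraries.

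The promoters of the members were CpG-rich. In the RefSeq promoter table (GRCm38.p6, windows from 250 bases before to 50 after the TSS) 33 members had 42 promoters. These held a median of 20 CG dinucleotides and 62.5% GC, against 7 and 52.7% over all 32851 promoters of the table, and 83.3% of them held at least 10 CG dinucleotides against 43.5% of all. Over the 7766 promoters of any gene with the TSS in an H3K27me3 region, the values were 8, 55.3% and 44.5%, near those of all promoters. The TSS of 32 of the 33 genes (97%) lay inside an H3K27me3 region, against 23.8% of the 27025 genes in the table. The bases before the TSS are printed below for 6 members, with each CG dinucleotide in capitals, to show the range of composition. Gdnf, Inhbb and Wnt1 gained the mark in CD229+ microglia, Inhba and Fgfbp1 had regions at the TSS without a called change, and Wnt2 is the member whose only listed TSS lay in no region; all were chosen after their values were seen.
Gdnf (chr15:7813477-7813726, plus strand): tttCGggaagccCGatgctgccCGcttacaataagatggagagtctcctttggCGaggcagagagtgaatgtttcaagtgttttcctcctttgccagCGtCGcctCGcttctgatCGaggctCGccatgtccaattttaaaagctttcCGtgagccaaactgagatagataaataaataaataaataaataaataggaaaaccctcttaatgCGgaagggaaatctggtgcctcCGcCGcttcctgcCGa
Inhbb (chr1:119422249-119422498, minus strand): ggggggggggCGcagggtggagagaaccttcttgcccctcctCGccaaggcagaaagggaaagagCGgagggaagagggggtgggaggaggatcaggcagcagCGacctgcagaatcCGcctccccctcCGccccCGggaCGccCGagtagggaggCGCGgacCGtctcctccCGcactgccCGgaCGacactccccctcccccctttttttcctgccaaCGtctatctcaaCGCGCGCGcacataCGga
Wnt1 (chr15:98789607-98789856, plus strand): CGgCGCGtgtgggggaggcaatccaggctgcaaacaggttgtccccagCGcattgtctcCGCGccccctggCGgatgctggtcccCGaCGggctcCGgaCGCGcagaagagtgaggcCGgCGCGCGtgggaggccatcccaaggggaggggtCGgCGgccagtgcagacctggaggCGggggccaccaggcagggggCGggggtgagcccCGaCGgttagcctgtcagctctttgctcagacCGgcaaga
Inhba (chr13:16011601-16011850, plus strand): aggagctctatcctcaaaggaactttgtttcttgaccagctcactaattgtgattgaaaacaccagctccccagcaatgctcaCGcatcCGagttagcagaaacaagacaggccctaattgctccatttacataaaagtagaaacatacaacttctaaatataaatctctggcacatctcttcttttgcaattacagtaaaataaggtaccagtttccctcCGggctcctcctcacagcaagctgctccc
Fgfbp1 (chr5:43981800-43982049, minus strand): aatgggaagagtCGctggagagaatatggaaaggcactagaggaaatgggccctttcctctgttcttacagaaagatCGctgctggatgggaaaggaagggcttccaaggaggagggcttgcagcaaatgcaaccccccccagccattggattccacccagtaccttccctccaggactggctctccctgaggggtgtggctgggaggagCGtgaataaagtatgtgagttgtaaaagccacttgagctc
Wnt2 (chr6:18030446-18030695, minus strand): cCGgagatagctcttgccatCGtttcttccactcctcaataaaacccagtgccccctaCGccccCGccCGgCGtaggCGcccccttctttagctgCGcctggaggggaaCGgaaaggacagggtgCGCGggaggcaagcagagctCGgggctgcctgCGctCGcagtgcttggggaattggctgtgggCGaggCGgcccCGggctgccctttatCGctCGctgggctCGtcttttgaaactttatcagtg
The printed 250 bases hold 14 CG dinucleotides at the downstream of the 2 listed Gdnf starts, 21 at Inhbb, 23 at Wnt1 and 20 at Wnt2, but 3 each at Inhba and Fgfbp1. The ranges of CpG content overlapped between genes with and without a call. Of the 24 genes with a region within 10 kb that was called higher in CD229+CD11c- microglia, 16 had a promoter in the table, and the count of CG dinucleotides in the richest 300-base window of each ran from 5 to 51 with a median of 22.5. The 6 of 7 other genes with an entry ran from 4 to 42 with a median of 11.5.

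In basal microglia the member regions within 10 kb were broad. Their median length was 16.3 kb (range 1.25 to 55.0 kb), against 7.38 kb for the 7746 other regions within 10 kb of a TSS, and 35.1% against 15.1% were longer than 20 kb. The enrichment over input in the authors' deposited table, a log2 fold, had a median of 1.96 at the member regions and 1.63 at the others. Since regions were called on this contrast, these values carry no test. Among the families, Wnt1 had the highest basal enrichment of the Wnt regions (2.77), Bmp3 of the TGF-beta superfamily (3.27, at an intronic region of 1.25 kb with a mean of 26.9 tags per library), Fgf9 of the FGFs (2.04) and Bdnf of the neurotrophic factors (2.26). The longest regions of the families were at Wnt10a (53.9 kb), Bmp6 (43.0 kb), Fgf3 (52.4 kb), Gdnf (18.1 kb) and Nog (55.0 kb), the last encoding Noggin, which binds BMPs and blocks them from their receptors.

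No region was named for 10 members (Wnt2, Wnt3, Wnt6, Wnt10b, Fgf8, Fgf17, Shh, Ihh, Chrd and Pdgfb), but for 8 of these the absence was one of naming. The gene body of each of the 8 was overlapped by a region assigned to a neighbour. Wnt3 lay in the 109 kb region named Wnt9b (chr11:103706838-103816144, mm10), Wnt6 in the 53.9 kb region named Wnt10a (chr1:74760520-74814382) and Wnt10b in the 47.4 kb region named Wnt1 (chr15:98764447-98811842). Thus 3 pairs of neighbouring Wnt genes each shared 1 domain. Ihh lay in a 132 kb region named Mir375, Chrd, which encodes the BMP antagonist Chordin, in one named Thpo, Fgf8 in one named 4933429K18Rik, Fgf17 in one named Dmtn, and Shh in a 15.0 kb region named 9530036O11Rik. Wnt2 and Pdgfb were overlapped by none. The TSS of Fgf4 likewise lay in the Fgf3 region and that of Wnt9a in the Wnt3a region.

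Comparing cuprizone subsets with basal microglia asks where the mark changes during demyelination. In CD229+CD11c- microglia H3K27me3 was higher than in basal microglia at 24 of the 37 member regions within 10 kb and lower at 1 (edgeR quasi-likelihood test, adjusted p under 0.05 over all 26326 regions). Of the other regions within 10 kb, 22.5% were higher and 2.61% lower. The median log2 fold change was 0.40 at the member regions and 0.08 at the others. CD229+CD11c+ microglia had 16 of the 37 higher and 0 lower, against 10.2% and 1.72% of the others, with medians of 0.29 and 0.03. In CD229-CD11c- microglia, which come from the same diet, none of the 37 passed in either direction, nor did any other region (0% of the others), by edgeR or DESeq2. At an unadjusted p under 0.05 there were 6 of the 37 member regions in that comparison, against 4.88% of the others, and the medians were 0.09 and 0.02.

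These 3 comparisons share the basal libraries, so their values are given side by side below and their overlap is not read. Apart from Gdnf (1.11) and Wnt5a (1.00), the 24 folds called in CD229+CD11c- were under 1 on the log2 scale, that is, under a doubling. Of the regions under 5 kb, 0 of 6 were called higher in either CD229+ subset, with a median of 61.8 tags per library. The lower call in CD229+CD11c-, at a region upstream of Tgfb2, was among these 6. By contrast 12 of the 13 regions of 20 kb or more were higher in CD229+CD11c- microglia, against 48.7% of 1172 other regions of that length. The share rose with length among the other regions too, from 7.33% under 5 kb, and the precision of a call rises with the tag count.

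**Figure D1:**
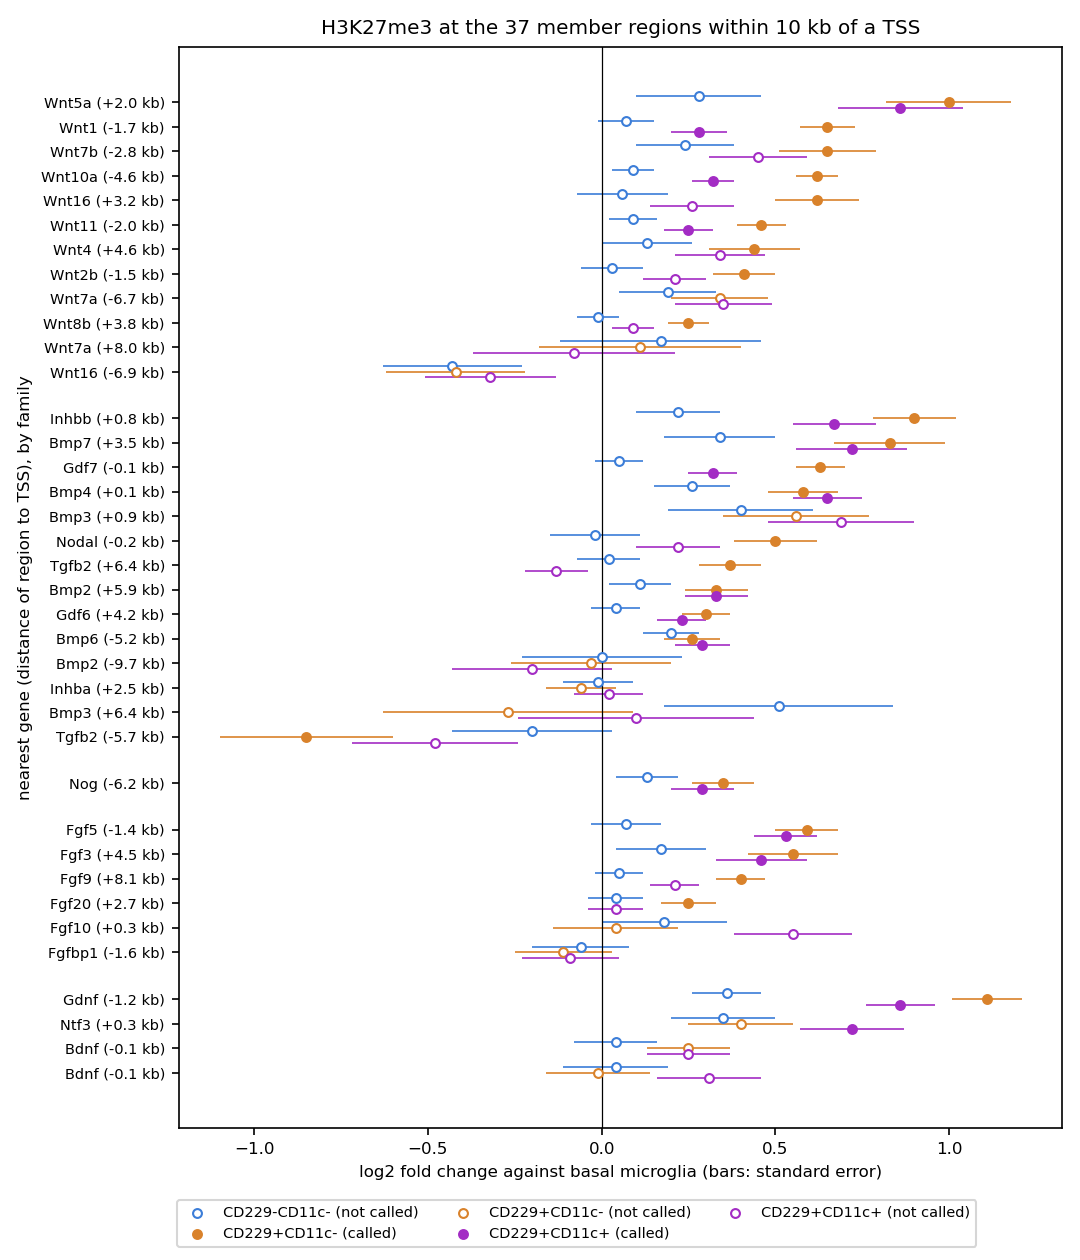
Log2 fold change against basal microglia (x axis, bars are standard errors) at each of the 37 member regions within 10 kb of a TSS, grouped by family, for 3 cuprizone subsets with 3 libraries each. Filled points passed the test; the CD229+CD11c- points lie to the right of 0 at 30 of 37 regions, and the largest fold is at Gdnf (1.11).

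**Figure D2:**
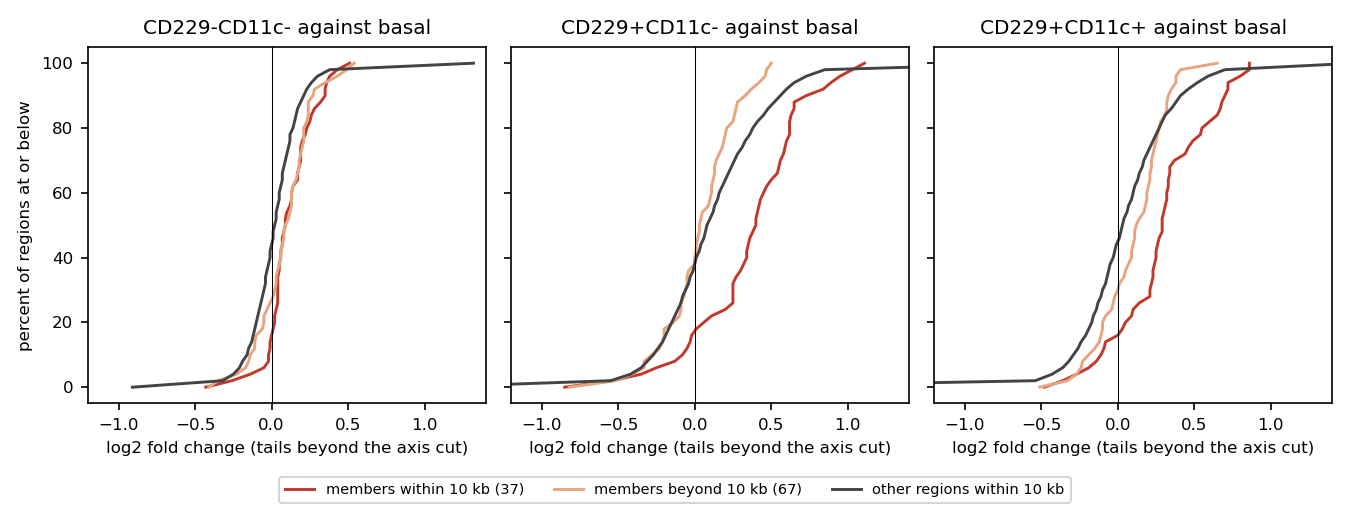
Cumulative distribution of log2 fold change against basal microglia (x axis, tails cut) for member regions within 10 kb, member regions beyond 10 kb and other regions within 10 kb. The members within 10 kb lie to the right of the others in both CD229+ subsets (medians 0.40 and 0.08 in CD229+CD11c-), while members beyond 10 kb had medians of 0.03 in CD229+CD11c- and 0.12 in CD229+CD11c+.

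Summed over the 37 regions, the members took 0.326% ± 0.00723 (SD, n = 3) of the tags in regions in basal libraries and 0.345% ± 0.0172 in CD229-CD11c-. The share was 0.415% ± 0.0104 in CD229+CD11c- and 0.387% ± 0.0118 in CD229+CD11c+. Every CD229+ library, the lowest at 0.374%, lay above every library of the other groups, the highest at 0.362%. No such share was taken for other regions within 10 kb. Region by region, every CD229+CD11c- library lay above basal at 25 of the 37, against 31.3% of other regions within 10 kb. For CD229+CD11c+ it was 22 of the 37, against 23.6%.

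Wnt ligands are described first. In CD229+CD11c- microglia 9 of 12 Wnt regions within 10 kb were higher than basal and 0 lower (median 0.45), and 4 of 12 were higher in CD229+CD11c+ (median 0.27). The first 2 genes described here share their domain with a second Wnt gene, as above. Wnt10a, a ligand of tooth and hair development, held 329, 292 and 317 CPM in basal libraries 3, 4 and 5, and 347, 318 and 336 CPM in the CD229-CD11c- libraries. It held 473, 492 and 475 CPM in CD229+CD11c- and 400, 378 and 397 CPM in CD229+CD11c+. The basal and CD229-CD11c- ranges overlapped, and both CD229+ subsets lay above them and apart from each other. The log2 folds against basal were 0.62 ± 0.06 (SE; adjusted p = 1.36e-06, edgeR) and 0.32 ± 0.06 (adjusted p = 0.00466).

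Wnt1, needed to form the midbrain and hindbrain, had the same order of groups. Its region held 361, 302 and 316 CPM in basal, 337, 322 and 369 in CD229-CD11c-, 492, 493 and 557 in CD229+CD11c-, and 385, 376 and 432 CPM in CD229+CD11c+ libraries. The log2 folds against basal were 0.65 ± 0.08 (adjusted p = 6.56e-06, edgeR) and 0.28 ± 0.08 (adjusted p = 0.0383). Wnt5a, which signals mainly without beta-catenin, had the largest fold of the Wnts: 27.1, 29.3 and 29.3 CPM in basal libraries against 65.3, 56.9 and 49.0 in CD229+CD11c- and 53.4, 62.4 and 40.1 in CD229+CD11c+. That is a log2 fold of 1.00 ± 0.18 (adjusted p = 0.000715, edgeR) and 0.86 ± 0.18 (adjusted p = 0.00848). No CD229+ library overlapped a basal one, while the CD229-CD11c- libraries spread across the basal range at 43.6, 37.5 and 23.7 CPM.

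The other Wnt regions that rose in CD229+CD11c- microglia were at Wnt7b, Wnt16 (the one 3.19 kb downstream of the TSS), Wnt11, Wnt4, Wnt2b and Wnt8b, with log2 folds from 0.25 to 0.65. Both Wnt7a regions had folds of 0.34 and 0.11 without a call, and the second Wnt16 region, 3.52 kb long and 6.89 kb upstream, had a fold of -0.42 without a call. Wnt11 was also higher in CD229+CD11c+ (0.25 ± 0.07, adjusted p = 0.0386, edgeR).

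Among the TGF-beta superfamily ligands 9 of 14 regions were higher and 1 lower in CD229+CD11c- (median 0.35), and 7 of 14 were higher in CD229+CD11c+ (median 0.26). Inhbb encodes a subunit of activin B, which signals through activin receptors. Its region, at the first exon, held 50.6, 54.6 and 59.6 CPM in basal libraries and 74.8, 68.4 and 49.5 in CD229-CD11c-. It held 116, 98.3 and 92.7 CPM in CD229+CD11c- and 93.1, 86.9 and 82.7 in CD229+CD11c+, all above every library of the other groups. The log2 folds against basal were 0.90 ± 0.12 (adjusted p = 2.71e-05, edgeR) and 0.67 ± 0.12 (adjusted p = 0.00239). The paralogue Inhba did not follow it: 52.1, 56.3 and 46.5 CPM in basal, 48.0, 52.2 and 48.7 in CD229+CD11c- and 53.0, 57.1 and 47.4 in CD229+CD11c+ libraries, with overlapping ranges and log2 folds of -0.06 ± 0.10 and 0.02 ± 0.10.

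Gdf7, a BMP-type ligand of the roof plate of the neural tube, held 106, 109 and 114 CPM in basal and 111, 118 and 113 in CD229-CD11c- libraries. The level was 181, 169 and 158 CPM in CD229+CD11c- and 134, 145 and 131 in CD229+CD11c+. The basal and CD229-CD11c- ranges overlapped; CD229+CD11c- was highest and CD229+CD11c+ stood between. The folds were 0.63 ± 0.07 (adjusted p = 3.15e-06, edgeR) and 0.32 ± 0.07 (adjusted p = 0.0107). Bmp4, a ventralizing signal of the early embryo, rose about equally in both: 67.3, 64.8 and 74.6 CPM in basal, 91.0, 87.1 and 69.5 in CD229-CD11c-, 107, 108 and 93.3 in CD229+CD11c- and 113, 118 and 93.0 in CD229+CD11c+. Its folds were 0.58 ± 0.10 (adjusted p = 0.000572, edgeR) and 0.65 ± 0.10 (adjusted p = 0.00093), and the 2 CD229+ groups overlapped.

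Bmp7, Bmp2 (the 17.7 kb region), Gdf6 and Bmp6 were also higher in both CD229+ subsets, with folds from 0.26 to 0.83 in CD229+CD11c-, and Nodal was higher in CD229+CD11c- (0.50 ± 0.12, adjusted p = 0.00817, edgeR) without a call in CD229+CD11c+. Bmp6 and Bmp4, with Gdnf below, had the smallest unadjusted p-values of CD229-CD11c- against basal, none of which passed. Bmp6 held 134, 131 and 145 CPM in basal and 163, 157 and 149 in CD229-CD11c- libraries, ranges that did not overlap, at a fold of 0.20 ± 0.08 (adjusted p = 0.983, edgeR). It held 168, 172 and 150 CPM in CD229+CD11c- and 185, 170 and 147 in CD229+CD11c+. The 2 Bmp3 regions passed in no comparison; the short intronic one ranged from 1.35 to 3.96 CPM over the 12 libraries.

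Tgfb2, which encodes an isoform of TGF-beta, gave opposite calls at 2 regions. The 18.9 kb region was centred in its first intron and also covered the TSS. It held 87.2, 80.5 and 76.0 CPM in basal and 82.6, 75.8 and 88.2 in CD229-CD11c- libraries. The level was 99.1, 101 and 115 CPM in CD229+CD11c- and 73.5, 66.0 and 82.7 in CD229+CD11c+. CD229+CD11c- lay above all other groups, which overlapped one another, with a fold of 0.37 ± 0.09 against basal (adjusted p = 0.00686, edgeR), whereas the CD229+CD11c+ fold was -0.13 ± 0.09. A 2.43 kb region 5.72 kb upstream of the TSS held 5.30, 5.89 and 6.13 CPM in basal and 2.89, 2.80 and 3.93 in CD229+CD11c- libraries. It held 5.21, 4.54 and 5.32 CPM in CD229-CD11c- and 3.14, 3.61 and 5.57 in CD229+CD11c+. This was the lower call of CD229+CD11c- (-0.85 ± 0.25, adjusted p = 0.0241, edgeR), from a mean of 45.3 tags per library, and the call was lost without basal replicate 4 or 5 or CD229+CD11c- replicate 1 or 2.

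The BMP antagonist Noggin and the FGFs come next. The 55.0 kb region of Nog was centred 6.19 kb upstream, in intergenic sequence, but covered the whole gene. It held 171, 177 and 191 CPM in basal and 216, 206 and 168 in CD229-CD11c- libraries. The level was 235, 240 and 213 CPM in CD229+CD11c- and 225, 236 and 200 in CD229+CD11c+. Both CD229+ groups lay above basal and overlapped CD229-CD11c-, with folds of 0.35 ± 0.09 (adjusted p = 0.00842, edgeR) and 0.29 ± 0.09 (adjusted p = 0.0494). Of 6 FGF regions, 4 were higher in CD229+CD11c- (Fgf5, Fgf3, Fgf9 and Fgf20) and 2 in CD229+CD11c+ (Fgf5 and Fgf3). Fgf5, a regulator of the hair cycle, held 32.4, 35.8 and 36.6 CPM in basal and 39.3, 35.7 and 35.4 in CD229-CD11c- libraries. It held 56.8, 51.9 and 49.5 CPM in CD229+CD11c- and 53.5, 51.8 and 46.7 in CD229+CD11c+, apart from the other groups, with folds of 0.59 ± 0.09 (adjusted p = 0.00011, edgeR) and 0.53 ± 0.09 (adjusted p = 0.00161).

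Fgf3, which shares its region with Fgf4, held 163, 172 and 196 CPM in basal, 232, 213 and 154 in CD229-CD11c-, 290, 265 and 224 in CD229+CD11c- and 268, 250 and 213 in CD229+CD11c+ libraries. Fgf9, a factor made by neurons, held 168, 159 and 151 CPM in basal, 158, 162 and 174 in CD229-CD11c-, 208, 203 and 218 in CD229+CD11c- and 183, 184 and 184 in CD229+CD11c+. Both stood above basal in CD229+CD11c- without overlap (0.55 ± 0.13 and 0.40 ± 0.07), and the CD229+CD11c+ fold of Fgf9 was 0.21 ± 0.07 without a call. Fgf10, with 0.55 ± 0.17 in CD229+CD11c+ (adjusted p = 0.0622, edgeR), and Fgfbp1, with -0.11 ± 0.14 and -0.09 ± 0.14, had no call.

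Gdnf, the ligand of the GFRA1 and RET receptor complex and a survival factor for dopaminergic and enteric neurons, had the largest fold of all 37 regions. Its 18.1 kb region (chr15:7803457-7821538, mm10), over the first intron and the start sites, held 68.1, 66.1 and 66.4 CPM in basal and 98.3, 88.8 and 71.1 in CD229-CD11c- libraries. The level was 155, 146 and 132 CPM in CD229+CD11c- and 130, 127 and 108 in CD229+CD11c+. No group overlapped basal, and CD229+CD11c- lay above CD229+CD11c+ without overlap, a difference that did not pass the test (-0.25 ± 0.10, adjusted p = 0.267, edgeR). Against basal the log2 folds were 1.11 ± 0.10 (a 2.16-fold level, adjusted p = 3.68e-07, edgeR) and 0.86 ± 0.10 (1.82-fold, adjusted p = 3.95e-05), and 0.36 ± 0.10 (adjusted p = 0.983) in CD229-CD11c-.

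The neurotrophins differed from Gdnf. Ntf3 was called higher in CD229+CD11c+ (0.72 ± 0.15, adjusted p = 0.00808, edgeR) and had 0.40 ± 0.15 in CD229+CD11c- without a call; the difference between the 2 subsets did not pass (0.32 ± 0.15, adjusted p = 0.374). Its region held 35.6, 34.3 and 39.5 CPM in basal, 54.4, 50.4 and 34.9 in CD229-CD11c-, 56.4, 48.5 and 39.4 in CD229+CD11c- and 68.0, 61.6 and 51.0 in CD229+CD11c+ libraries. CD229+CD11c+ lay above basal without overlap, and the other groups overlapped basal. Bdnf, a neurotrophin that microglia have been reported to make, had 2 regions at annotated start sites and no call. The more enriched one held 42.6, 34.6 and 38.5 CPM in basal, 46.7, 40.5 and 31.7 in CD229-CD11c-, 50.0, 44.4 and 42.5 in CD229+CD11c- and 44.0, 50.4 and 43.2 in CD229+CD11c+, with folds of 0.25 ± 0.12 in each CD229+ subset. Its CD229+CD11c- libraries overlapped basal and its CD229+CD11c+ libraries lay just above. The other Bdnf region had folds of -0.01 ± 0.15 in CD229+CD11c- and 0.31 ± 0.15 in CD229+CD11c+, and both groups overlapped basal.

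**Figure D3:**
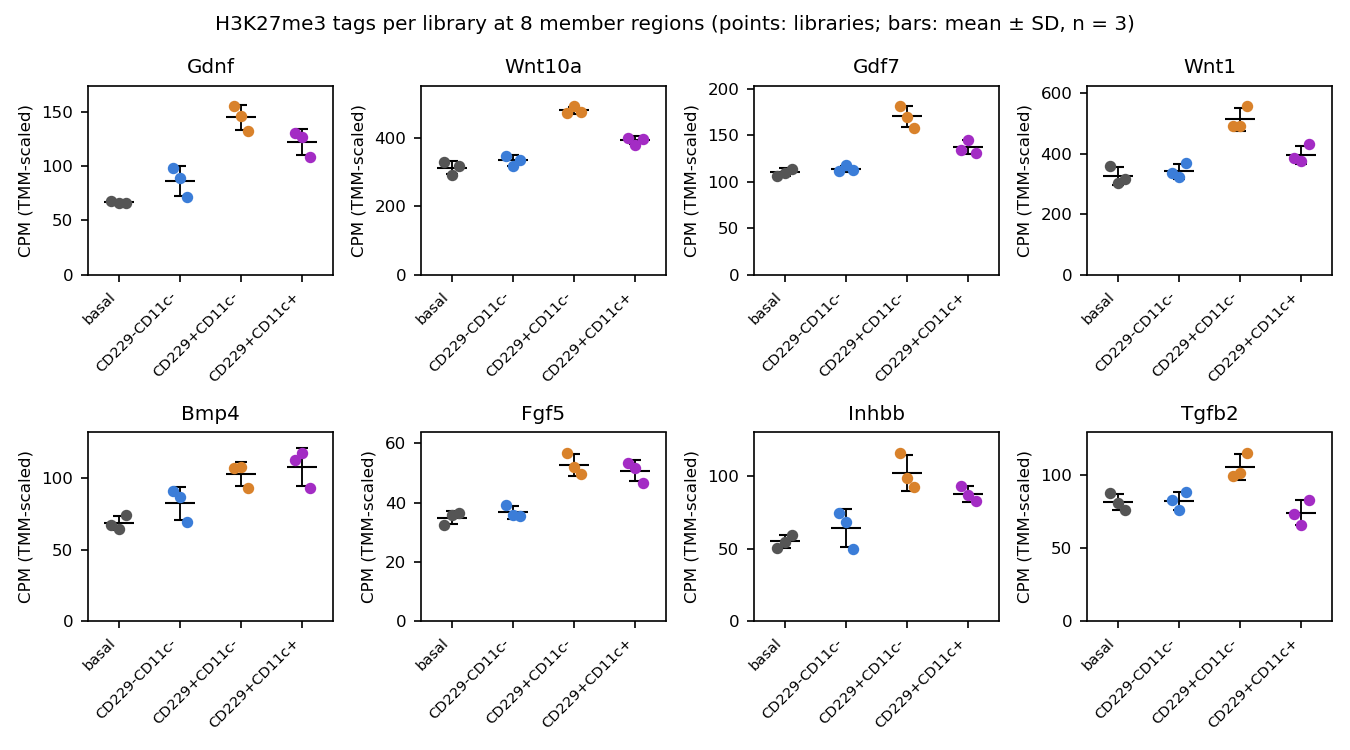
H3K27me3 level (y axis, CPM on TMM-scaled library sizes, from 0) in each of 12 libraries at 8 member regions, with mean and SD of the 3 libraries per group. CD229+CD11c- libraries are the highest group at Gdnf, Wnt10a, Gdf7, Wnt1 and the 18.9 kb Tgfb2 region, while the 2 CD229+ groups overlap at Bmp4 and Fgf5.

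The hedgehog ligands had no row of their own, and their genes were read from the neighbours' regions. Of the 8 absent members covered by such a region, all 8 regions were higher in CD229+CD11c- microglia and 5 in CD229+CD11c+. These regions were 15.0 to 132 kb long, and among other regions of 20 kb or more within 10 kb of a TSS 48.7% and 20.6% were higher. Shh, which patterns the ventral neural tube, lay in a region with folds of 0.79 ± 0.18 (adjusted p = 0.00636, edgeR) and 0.70 ± 0.18 (adjusted p = 0.0295), and Ihh in one with 0.39 ± 0.07 and 0.26 ± 0.07. The Fgf8, Fgf17 and Chrd regions had folds of 0.56 ± 0.08, 0.45 ± 0.08 and 0.41 ± 0.10 in CD229+CD11c- and no call in CD229+CD11c+. The Wnt3 region (named Wnt9b) had 0.50 ± 0.09 and 0.38 ± 0.09, both called. These regions were chosen because they cover a member, after the absence of a row was seen, and 3 of them are the Wnt regions counted elsewhere under another name.

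Beyond 10 kb of the TSS few member regions changed. In CD229+CD11c- 4 of 67 were higher and 2 lower, against 3.97% and 3.83% of the 18476 other regions beyond 10 kb, and in CD229+CD11c+ 2 were higher and 0 lower, against 1.79% and 1.37%. These shares were near the background. The median fold of the 67 was 0.09 for the CD229-CD11c- libraries, 0.03 for CD229+CD11c- and 0.12 for CD229+CD11c+, against 0.00, -0.06 and -0.02 at the other regions beyond 10 kb. The higher ones were mostly broad domains that reach the promoter although their centre is far from it: 3 of the 67 regions held a member's TSS (Wnt3a, Wnt9b and Fgf18, 87.8, 109 and 31.6 kb long), and all 3 were higher in CD229+CD11c-, against 1 of the other 64. No share was taken for other distant regions of like length. Among other regions within 10 kb, 48.7% of those of 20 kb or more were higher, against 7.33% under 5 kb. The parts of length and of the TSS were not tested. Wnt9b held 396, 380 and 432 CPM in basal, 506, 485 and 401 in CD229-CD11c-, 608, 597 and 500 in CD229+CD11c- and 566, 532 and 479 in CD229+CD11c+ libraries. Wnt3a, needed to form the hippocampus, held 400, 354 and 408 CPM in basal, 458, 423 and 370 in CD229-CD11c-, 533, 515 and 467 in CD229+CD11c- and 470, 470 and 462 in CD229+CD11c+. At both, every CD229+ library was above every basal library.

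The remaining higher region, 20.2 kb long and intergenic at 39.5 kb upstream of Wnt7b, held 103, 93.8 and 96.1 CPM in basal, 105, 103 and 102 in CD229-CD11c-, 139, 134 and 134 in CD229+CD11c- and 110, 108 and 113 in CD229+CD11c+ libraries. CD229+CD11c- stood apart from all other groups (0.48 ± 0.07 against basal, adjusted p = 3.03e-05, edgeR). Of the 2 lower regions, one in the first intron of Tgfb2, 22.8 kb from the TSS, held 21.7, 21.2 and 19.8 CPM in basal and 12.9, 16.9 and 15.4 in CD229+CD11c- libraries (-0.47 ± 0.13, adjusted p = 0.0207, edgeR). It held 20.7, 21.1 and 16.5 CPM in CD229-CD11c- and 17.5, 15.8 and 17.6 in CD229+CD11c+, where as in CD229+CD11c- every library was below basal. The other, 14.6 kb upstream of Fgfbp1 and inside an intron of another gene, held 29.0, 27.1 and 27.7 CPM in basal, 29.3, 33.3 and 29.5 in CD229-CD11c-, 21.9, 24.1 and 20.6 in CD229+CD11c- and 30.6, 30.6 and 29.9 in CD229+CD11c+. It was lowest in CD229+CD11c- without overlap (-0.33 ± 0.11 against basal, adjusted p = 0.0402, edgeR), a call that each of 5 libraries left out in turn removed.

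Near and distant regions assigned to a gene can be compared without scaling between libraries, as the ratio of tags within 10 kb to tags beyond 10 kb in the same library. The distant regions are assigned by nearest gene only. Many are intergenic, and at Fgf9 they lie up to 410 kb from the TSS. For 19 members with regions on both sides, the log2 ratio was above every basal library in all 3 CD229+CD11c- libraries at 14 genes and below at 0. Of 3435 other genes, 33.8% were above and 6.43% below. In CD229+CD11c+ 11 genes were above and 1 below (Wnt8b), against 22.3% and 7.92%. In CD229-CD11c- 1 gene was above (Wnt11) and 0 below, against 5.97% and 3.7%. The counts of genes below are near the background. The median differences from basal were 0.42, 0.27 and 0.07 for the members and 0.14, 0.06 and 0.02 for the other genes. With 3 libraries against 3 no exact test of a single ratio can go below p = 0.1, so none is given, and this measure was added after the counts had been seen. Bmp7 shows the pattern: its log2 ratio was -2.04, -2.19 and -2.10 in basal and -1.26, -1.38 and -1.30 in CD229+CD11c- libraries, since the region over the first intron rose (0.83 ± 0.16) while the 6 regions farther away had folds from -0.09 to 0.21. At Inhbb the 3 distant regions had folds from -0.08 to 0.25, and none passed.

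**Figure D4:**
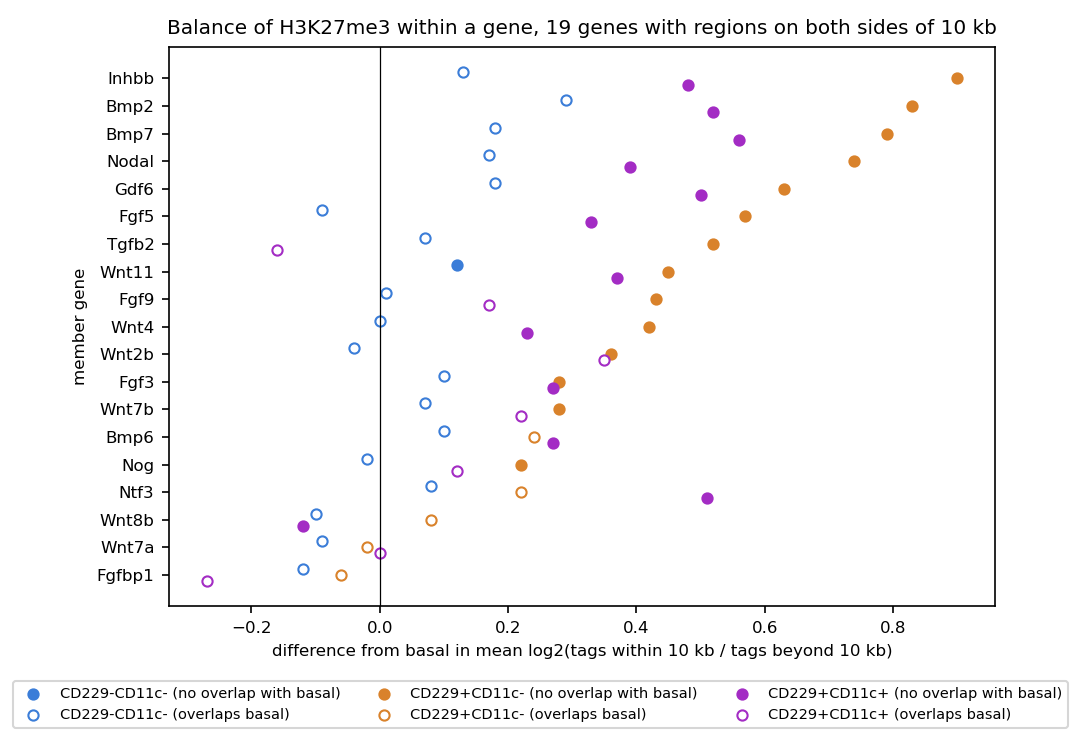
Difference from basal of the mean log2 ratio of tags within 10 kb to tags beyond 10 kb (x axis) for 19 member genes in 3 cuprizone subsets. Filled points mark genes whose 3 subset libraries do not overlap the 3 basal libraries; the CD229+CD11c- points are filled to the right of 0 at 14 of 19 genes, with the largest difference at Inhbb (0.90).

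Comparisons among the cuprizone subsets ask whether the change goes with CD229 or with CD11c. Against CD229-CD11c- microglia, 15 of 37 member regions within 10 kb were higher in CD229+CD11c- and 0 lower, against 16.4% and 1.46% of the other regions within 10 kb (medians 0.26 and 0.08). Wnt10a (0.52 ± 0.06), Gdf7 (0.58 ± 0.07), Gdnf (0.75 ± 0.10) and Wnt1 (0.59 ± 0.08) had the smallest p-values, with adjusted p (edgeR) from 2.12e-05 to 5.06e-05. In CD229+CD11c+ against CD229-CD11c-, 2 were higher, Gdnf (0.50 ± 0.10, adjusted p = 0.0184, edgeR) and Fgf5 (0.46 ± 0.09, adjusted p = 0.0217), and 0 lower, against 0.904% and 0.387%. Both calls were lost without CD229-CD11c- replicate 2 or CD229+CD11c+ replicate 1 or 2, leaving 0. In these 2 comparisons same-numbered libraries correlated positively, but so did replicates 1 and 2 across groups. Replicate 2 of CD229-CD11c- correlated better with replicate 1 of each CD229+ subset (0.25 and 0.18) than with its own number (0.13 and 0.13). Replicate 3 is the untagged library, so the number also splits tagged from untagged libraries. A fit of the cuprizone libraries with the replicate number as a block called more. It gave 23 higher and 0 lower in CD229+CD11c-, against 27.2% and 4.12% of the others, and 20 higher and 0 lower in CD229+CD11c+, against 13.6% and 2.27%.

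Between the CD229+ subsets themselves, 4 of 37 regions were lower in CD229+CD11c+ than in CD229+CD11c- and 0 higher, against 1.98% and 0.0129% of the others. These were the 18.9 kb Tgfb2 region (-0.50 ± 0.09, adjusted p = 0.0138, edgeR), Wnt1 (-0.37 ± 0.08, adjusted p = 0.0316), Wnt10a (-0.29 ± 0.06, adjusted p = 0.0338) and Gdf7 (-0.31 ± 0.07, adjusted p = 0.0402). Their libraries, given above, did not overlap between the 2 subsets. The count fell to 0 without CD229+CD11c- replicate 3 or CD229+CD11c+ replicate 1 or 2, to 1 without CD229+CD11c- replicate 1 or 2 and to 2 without CD229+CD11c+ replicate 3. With CD229+CD11c- against basal, leaving out a library gave 18 to 26 higher regions. With CD229+CD11c+ against basal the count was 6 without basal replicate 4, 7 without CD229+CD11c+ replicate 1 or 2, and 10 without basal replicate 3 or 5, in place of 16.

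**Figure D5:**
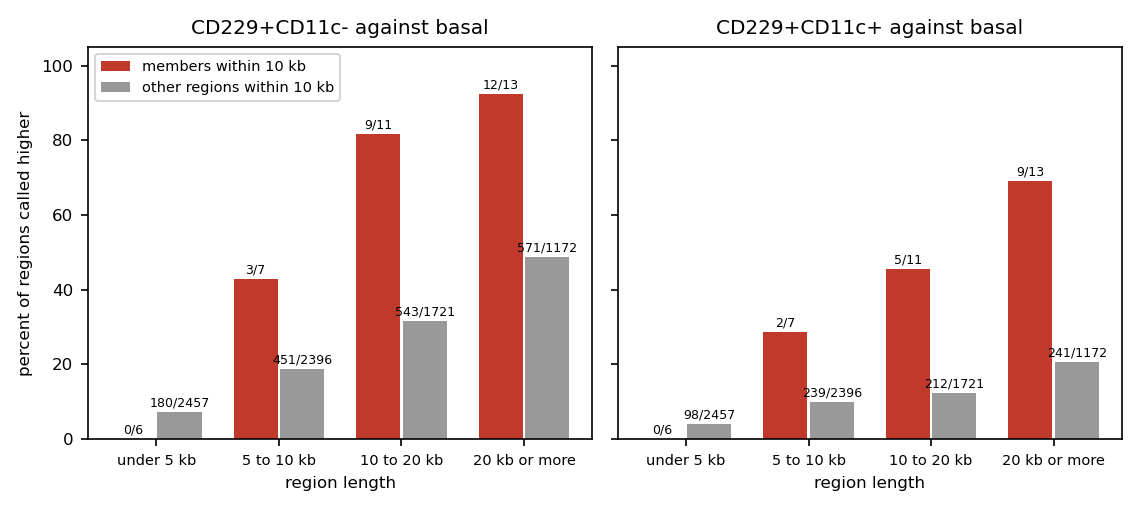
Percent of regions within 10 kb called higher than basal (y axis) by region length, for members and for other regions, in both CD229+ subsets; the numbers over the bars are called over tested regions. In CD229+CD11c- the members go from 0 of 6 under 5 kb to 12 of 13 at 20 kb or more, and the other regions from 7.33% to 48.7%.

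How many members were called depended on scaling. Total tag counts in place of TMM moved the median log2 fold of all regions in CD229+CD11c- against basal from -0.03 to -0.16 and the calls over all regions from 2506 higher and 913 lower to 1578 higher and 3789 lower. With that scaling 16 of the 37 member regions were higher, all among the 24, against 15.2% of the other regions within 10 kb, and the members' median fold was 0.26. Offsets that removed the trend of fold with basal enrichment and tag density over all regions (loess) left 7 of the 37 higher in CD229+CD11c- (18.9%) and 8 of the 37 in CD229+CD11c+ (21.6%), against 9.45% and 5.53% of the other regions within 10 kb. These 7 and 8 were all among the 24 and the 16 called with TMM alone. The 7 were at Gdnf, Inhbb, Wnt5a, Bmp7, Bmp4, Fgf5 and Wnt7b. With these offsets Wnt1, Wnt10a and Gdf7, among the regions with the smallest p under TMM, were no longer called in CD229+CD11c- against basal. Their folds there were 0.05, 0.15 and 0.17.

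By the PE150 tag, the 2 tagged libraries per group gave a median fold at the 37 regions of 0.44 in CD229+CD11c- and 0.35 in CD229+CD11c+, and the untagged pair of libraries gave 0.29 and 0.16, with 27 and 29 of 37 above 0, against 63.4% and 56.4% of the other regions within 10 kb. For CD229-CD11c- the tagged libraries gave 0.19, with 12 of 37 regions called higher against 5.4% of the others. The untagged pair gave -0.03, with 14 of 37 above 0 against 49.6% of the others, so the sign of that median differed between tagged and untagged libraries. An untagged pair is 1 library per group and has no test. For the comparisons among cuprizone subsets the tagged and untagged medians were 0.27 and 0.36 (CD229+CD11c- against CD229-CD11c-), 0.20 and 0.23 (CD229+CD11c+ against CD229-CD11c-), and -0.10 and -0.09 (CD229+CD11c+ against CD229+CD11c-).

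The other genes of these pathways were read from lists. Of 203 receptors, antagonists, transducers, targets and further ligands in 10 lists, 111 had a region within 10 kb, 129 regions in all. In CD229+CD11c- 59 of the 129 were higher than basal and 4 lower, against the 22.5% and 2.61% of other regions within 10 kb given above, and in CD229+CD11c+ 31 and 3, against 10.2% and 1.72%. The count of lower calls is near that background. Receptors for neurotrophins, GDNF and PDGF had 7 of 10 regions higher in CD229+CD11c- (median 0.51), among them Gfra2 (0.79 ± 0.08, adjusted p = 8.51e-07, edgeR), which encodes a coreceptor for the GDNF family. Gfra1, the coreceptor that binds GDNF itself, had 0.99 ± 0.12 in CD229+CD11c- and 0.96 ± 0.12 in CD229+CD11c+ (adjusted p = 8.01e-05, edgeR). Ligand and coreceptor genes thus both carried more of the mark.

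Antagonists of BMP and TGF-beta had 9 of 12 regions higher in CD229+CD11c- (median 0.37). Their receptors had 2 of 10 (median 0.02), about the share of the background, and the difference between these lists was not tested. Frizzled and other Wnt receptors had 5 of 11 higher (median 0.37), Wnt antagonists and agonists 7 of 18 (0.23), and Wnt targets and transducers 6 of 11 (0.40), led by the transcription factor Lef1 (0.73 ± 0.07, adjusted p = 4.77e-07, edgeR). FGF receptors, targets and inhibitors had 6 of 11 higher (0.35), hedgehog receptors, targets and inhibitors 6 of 13 (0.31), and BMP and TGF-beta targets and transducers 1 of 3 (0.20). The 4 lower calls were all in the list of further ligands, which had 10 of 30 regions higher (median 0.20). The neurotrophin gene Ntf5 rose most clearly (0.81 ± 0.07, adjusted p = 9.64e-08, edgeR). Pdgfa, which encodes a ligand of the PDGF alpha receptor on oligodendrocyte progenitors, had 1 of its 2 regions lower, by a log2 fold of -0.66 ± 0.18 in CD229+CD11c- (adjusted p = 0.0168, edgeR) and -1.36 ± 0.19 in CD229+CD11c+ (adjusted p = 0.000215). Fgf1 (-0.65 ± 0.16, adjusted p = 0.00756, edgeR), Pdgfc (-0.54 ± 0.14) and a region of Fgf2 (-0.74 ± 0.22) were the other lower calls in CD229+CD11c-. Another region of Fgf2 (-1.40 ± 0.33) and the Wnt modulator Dkk2 (-0.53 ± 0.13) were lower in CD229+CD11c+.

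Among the cuprizone subsets, 46 of these 129 regions were higher in CD229+CD11c- than in CD229-CD11c- and 0 lower, against 16.4% and 1.46% of other regions, led by Ntf5 (0.64 ± 0.07), Lef1 (0.62 ± 0.07) and Wnt8a (0.66 ± 0.08). In CD229+CD11c+ against CD229-CD11c- 5 were higher, led by Lef1 (0.39 ± 0.07), Gfra2 (0.45 ± 0.08) and Spry2 (0.43 ± 0.10), which encodes a feedback inhibitor of FGF signalling, and 1 lower, Pdgfa (-1.01 ± 0.20), against 0.904% and 0.387%. Between the CD229+ subsets 0 were higher and 5 lower in CD229+CD11c+, led by Ntf5 (-0.39 ± 0.07), Wnt8a (-0.42 ± 0.08) and the hedgehog receptor Ptch1 (-0.39 ± 0.08), against 0.0129% and 1.98%. None of the 129 passed in CD229-CD11c- against basal.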

How the data were processed

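H3K27me3 ChIP-seq libraries and inputs make up the series (14 of each). Reads were mapped to mm10 and tags counted with HOMER, per the submitters' processing notes, which name Bowtie2 2.3.4.1 and fastp 0.20.0. Regions were called with HOMER on basal replicates 1 and 2 against input, and the log2 fold and p-value of each region over input are in the authors' deposited table (size 1250, adjusted p under 0.05 and log2 fold over 1, per the file headers). The authors deposited raw tag counts of 26326 regions (26325 called, 1 added) in 12 libraries, with no input subtracted. Each region's nearest gene and feature come from that table.

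Counts were tested with edgeR 4.0.16 (quasi-likelihood F-test, TMM, filterByExpr, 4 groups in 1 fit, Benjamini-Hochberg over all regions, threshold 0.05) in R 4.3.3, after a check on simulated counts. CPM values use TMM-scaled library sizes, and a standard error is the fold divided by the root of its F statistic. The alternatives were DESeq2 1.42.0, total-count scaling, loess offsets on basal enrichment and tag density, other filters and distances, the PE150 tag as a covariate, a replicate block and each library left out. PE150-tagged libraries alone were added after seeing the data. Replicate numbers were checked for pairing by the correlation of deviations from group means: same-numbered libraries of CD229-CD11c- correlated with those of CD229+CD11c- at 0.28, 0.13 and 0.46 and with those of CD229+CD11c+ at 0.24, 0.13 and 0.42. Replicate 2 of CD229-CD11c- correlated better with replicate 1 of those groups (0.25 and 0.18), so pairing by number is not established. The labels give only the number, and replicate 3 of each cuprizone group is the untagged library.

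Members, gene lists and rules were chosen with earlier results of these data known. Values in every library are given for the member regions within 10 kb with the smallest p in each comparison (4 per direction that passed with groups that do not overlap, 3 where none passed), the most enriched and the longest of each family, and the 3 beyond 10 kb with the smallest p each way. Pathway lists give the 3 with the smallest p each way. Wnt5a, Bmp7, Inhba, Ntf3, Bmp6 in further comparisons, the regions covering absent members and the printed promoters were chosen after their values were seen. Promoter sequences are from RefSeq (GRCm38.p6), matched by symbol. The basal replicates 1 and 2, for which no counts were used, and the authors' normalized table were not analysed here.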

Additional observations from a re-analysis of the deposited data

Results flagged for a closer look

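Both CD229+ subsets were compared with basal microglia, and 6 member regions are listed because the difference between the subsets itself passed the test (edgeR, CD229+CD11c+ against CD229+CD11c-). At 5 of them CD229+CD11c+ had less of the mark: the 18.9 kb Tgfb2 region (log2 fold -0.50), Wnt1 (-0.37), Gdf7 (-0.31), the region 39.5 kb upstream of Wnt7b (-0.30) and Wnt10a (-0.29). At the region 14.6 kb upstream of Fgfbp1 it had more (0.45 ± 0.11, adjusted p = 0.0438, edgeR). In each of the 6, the 3 libraries of one subset did not overlap those of the other. These calls depended on single libraries and on scaling. Of the regions within 10 kb, 4 were called lower, but only 0 to 2 with 1 library left out. With total-count scaling or loess offsets it was 0.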

How the results depend on the processing

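Counts below are member regions within 10 kb called higher or lower, unless said otherwise. The cause of each shift was not tested. A setting also moves the calls at other regions. A count without their share is not read as a result about the members. With loess offsets, CD229+CD11c- against basal had 7 higher and 0 lower, CD229+CD11c+ against basal 8 higher, CD229+CD11c- against CD229-CD11c- 3 higher, CD229+CD11c+ against CD229-CD11c- 0 higher and CD229+CD11c+ against CD229+CD11c- 0 lower. The same offsets turned the fold of Wnt3a to -0.03 and of Wnt11 to -0.03 (CD229+CD11c- against CD229-CD11c-), and of Wnt10a to 0.01 and the members' median to 0.02 (CD229+CD11c+ against CD229+CD11c-). Total-count scaling left 9 higher in CD229+CD11c+ against basal, 1 higher against CD229-CD11c- and 0 lower against CD229+CD11c-. DESeq2 called 6 higher in CD229+CD11c+ against CD229-CD11c-, and a fit on the 2 groups alone 0.

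With the PE150 tag as a covariate there was 1 higher in CD229-CD11c- against basal, 25 in CD229+CD11c+ against basal, 23 in CD229+CD11c- and 14 in CD229+CD11c+ against CD229-CD11c-, and 2 higher and 12 lower in CD229+CD11c+ against CD229+CD11c-. Tagged libraries alone gave 12 higher in CD229-CD11c- against basal, where 418 of the 7746 other regions within 10 kb were higher. They gave 27 higher and 1 lower in CD229+CD11c+ against basal, beside 1642 and 459 of the other regions. In CD229+CD11c+ against CD229-CD11c- 12 were higher, beside 497 of the others. Between the CD229+ subsets 2 were higher and 9 lower, beside 40 and 796 of the others. In CD229+CD11c- against basal, 0 were lower within 5 kb or with a mean of at least 100 counts, and 3 at any distance. At any distance 1 region was lower in CD229+CD11c- against CD229-CD11c-, and 1 was higher between the CD229+ subsets, where the median became 0.03.

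With the replicate number as a block, fitted on the cuprizone libraries, 23 were higher in CD229+CD11c- and 20 in CD229+CD11c+ against CD229-CD11c-, and 3 higher and 13 lower between the CD229+ subsets. Between the CD229+ subsets same-numbered libraries correlated at 0.20, 0.08 and 0.33, so there the numbers are not taken to pair the samples. Replicate 2 did not correlate best with its own number there. The same was true of replicate 2 of CD229-CD11c- against both CD229+ subsets, so pairing is not established in those comparisons either. Without the block the cuprizone libraries alone gave 15 higher, 2 higher and 3 lower in these comparisons. No paired analysis was possible for the comparisons with basal because these groups share only number 3.

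Leaving out each library in turn gave 0 to 1 higher in CD229-CD11c- against basal, 18 to 26 higher and 0 to 1 lower in CD229+CD11c- against basal, 6 to 16 higher in CD229+CD11c+ against basal, 12 to 19 and 0 to 3 higher against CD229-CD11c-, and 0 to 2 lower between the CD229+ subsets. An arm of 2 libraries shares the spread of the other groups. Short regions with few tags limit what could be called, and regions absent from basal microglia are not in the table.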
